A study of Mus musculus with 59 samples.

Results

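The nuclear-encoded genes of the oxidative phosphorylation system were followed across 3 mouse brain regions, 2 treatments and single libraries. Members were the rows of the count table whose Ensembl ID has a mouse symbol of the Ndufa, Ndufb, Ndufc, Ndufs or Ndufv series, Sdha to Sdhd, any Uqcr gene, a Cox4 to Cox8 gene with a letter a to c after the digit, Cyc1, Cycs or any Atp5 gene. Assembly factors of the Ndufaf and Uqcc series were left out. The choice used names alone and no measured value. It gave 84 members of 21935 genes: 35 of complex I, 4 of complex II, 9 of complex III, 18 of complex IV, 17 of complex V and the cytochrome c gene. Ndufa4 and Ndufa4l2 were counted with complex IV, where the Ndufa4 protein is placed today. Cox4i1, Cox4i2 and Ndufab1 encode subunits that the naming rule does not catch.

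All animals were C57BL/6 mice, killed 4 h after 1 intraperitoneal injection of IP118/PY115 or of vehicle. The series concerns joint agonism at the receptors for the gut hormones PYY and GLP-1. Tissue was laser-captured from 10 µm frozen sections, 4 mm² per region and animal, from 2 hypothalamic sites, the paraventricular nucleus (PVN) and arcuate nucleus (ARC), and from a brainstem site, the nucleus tractus solitarius (NTS). PolyA RNA was sequenced. PVN had 10 IP118/PY115 and 10 vehicle libraries, ARC 10 and 9, and NTS 10 and 10. Each library is 1 region of 1 animal. The labels give no sex or age and do not tie the regions of 1 animal together, so tests between regions take libraries as independent, and p-values measure the spread between libraries. Library numbers in the titles run by region: 5465 to 5484 for PVN, 5509 to 5528 for ARC and 5726 to 5745 for NTS. Numbers 5553 to 5557 are further vehicle libraries of PVN and ARC, with no IP118/PY115 library among them. Region and number range therefore cannot be told apart.

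Library totals ran from 3964093 to 28510118 counts, and their medians were 10491077 (PVN), 10392473 (ARC) and 11700301 (NTS). Each dissection carried its own region's marker genes. The summed PVN markers lay between 8646 and 21275 CPM (the read count scaled by the TMM-adjusted library total) in PVN vehicle libraries. They reached at most 473 CPM in ARC and 4.55 CPM in NTS vehicle libraries, but 101 CPM in NTS IP118/PY115 library 9. ARC markers summed to 2171 to 3527 CPM in ARC vehicle libraries, and NTS markers to 893 to 1378 CPM in NTS vehicle libraries. In vehicle libraries of other regions, ARC markers reached at most 37.96 CPM and NTS markers 2.67 CPM. Some libraries stood apart. In PVN vehicle library 10, most members and many other short transcripts were high. The members' called counts, median fold changes and leading genes that rest on it are also given without it. Shares of counts, levels per kilobase and values of other gene lists include it. The libraries numbered 1 went against their labels in all 3 regions. Among the 429 genes called for treatment in PVN without them, 86% lay nearer to the other group's mean in IP118/PY115 library 1, and 85.8% in vehicle library 1. The same shares were 78.4% and 92.8% of 153 genes in ARC, and 89.5% and 89.5% of 162 genes in NTS. ARC IP118/PY115 library 2 was high in oligodendrocyte markers, at 6014 CPM summed, against a median of 973.5 CPM in its group.

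Oxidative phosphorylation takes place at the inner mitochondrial membrane. Complex I (NADH dehydrogenase) and complex II (succinate dehydrogenase) feed electrons to ubiquinone, complex III passes them to cytochrome c, and complex IV (cytochrome c oxidase) gives them to oxygen. Protons pumped on the way drive complex V, the ATP synthase, which supplies neurons with most of the ATP they use for ion pumping and transmission. Several complex IV subunits have a widely expressed form and a second form known from muscle, heart or testis. The mitochondrially encoded subunits were not analysed here.

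Promoter windows of 250 bases before and 50 after the gene start, from RefSeq on GRCm38.p6, were found for 67 of the 84 members. Those with no window included Sdhc, Cyc1, Cox6a2, Ndufa4l2 and Atp5a1. Motifs were searched on both strands as exact letters, for factors whose sites are known from promoters of respiratory genes. The NRF1 motif, GCGC and TGCGC with any base between, was in 16 of the 67 windows (23.9%), against 4.6% of all 32851 windows. CCGGAAG, bound by ETS factors such as GABP, was in 15 (22.4% against 8.9%). AANATGGC, a YY1 motif, was in 14 (20.9% against 6.1%), and GGGCGG, a GC box bound by Sp factors, was in 27 (40.3% against 35.7%). In 15 member windows none of the 4 motifs was found. The median GC content was 57% in member windows, against 52.7% in all windows, and the median number of CpG dinucleotides was 19, against 7. A match is a run of letters and not a measured site. The windows of 5 complex IV genes whose levels separate the regions, or that are their partner forms, are shown 5′ to 3′ on the gene's strand with motif matches in capitals.
Cox6a1 (chr5:115348909-115349208, minus strand): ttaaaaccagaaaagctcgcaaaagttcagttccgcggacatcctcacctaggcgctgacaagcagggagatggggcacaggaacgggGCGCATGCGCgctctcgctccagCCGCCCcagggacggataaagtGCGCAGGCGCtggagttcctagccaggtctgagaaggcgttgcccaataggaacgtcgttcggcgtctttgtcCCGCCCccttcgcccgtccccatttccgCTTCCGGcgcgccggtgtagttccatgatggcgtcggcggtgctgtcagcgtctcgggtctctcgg
Cox6b2 (chr7:4753045-4753344, minus strand): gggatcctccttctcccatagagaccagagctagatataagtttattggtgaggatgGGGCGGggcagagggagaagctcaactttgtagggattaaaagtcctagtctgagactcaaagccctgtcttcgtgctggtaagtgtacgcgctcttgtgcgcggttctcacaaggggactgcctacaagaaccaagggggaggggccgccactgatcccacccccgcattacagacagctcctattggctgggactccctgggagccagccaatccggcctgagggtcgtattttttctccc
Cox6b1 (chr7:30626065-30626364, minus strand): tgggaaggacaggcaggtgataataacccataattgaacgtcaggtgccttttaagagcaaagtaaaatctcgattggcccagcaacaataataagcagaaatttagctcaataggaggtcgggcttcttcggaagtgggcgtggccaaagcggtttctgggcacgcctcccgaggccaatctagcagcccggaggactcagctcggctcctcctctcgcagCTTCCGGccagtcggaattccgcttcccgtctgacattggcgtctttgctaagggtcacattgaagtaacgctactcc
Cox7a1 (chr7:30183921-30184220, plus strand): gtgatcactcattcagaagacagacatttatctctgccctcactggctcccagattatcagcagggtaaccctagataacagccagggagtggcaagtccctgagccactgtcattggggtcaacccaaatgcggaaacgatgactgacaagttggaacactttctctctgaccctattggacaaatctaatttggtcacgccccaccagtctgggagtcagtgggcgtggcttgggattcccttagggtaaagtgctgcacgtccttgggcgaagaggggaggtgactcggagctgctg
Cox7a2 (chr9:79759804-79760103, minus strand): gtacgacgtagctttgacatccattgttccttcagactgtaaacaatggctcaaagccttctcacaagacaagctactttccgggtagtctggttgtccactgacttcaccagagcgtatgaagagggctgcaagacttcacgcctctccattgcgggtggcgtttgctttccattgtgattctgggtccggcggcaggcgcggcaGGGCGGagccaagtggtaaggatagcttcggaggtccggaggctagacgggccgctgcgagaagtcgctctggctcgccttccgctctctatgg
Cox6a1 held 2 NRF1 matches, 1 ETS match and 2 GC boxes, at separate positions. Its window had 32 CpG dinucleotides. Cox7a1, the muscle form of its subunit, held none of the 4 motifs and 7 CpG dinucleotides, whereas its partner Cox7a2 held 1 GC box and 20 CpG dinucleotides. Cox6b2, the testis form, had 1 GC box and 10 CpG dinucleotides, and Cox6b1 had 1 ETS match and 17 CpG dinucleotides.

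The members made up a small share of each library. They took 1.15 ± 0.0811% of counts in PVN of IP118/PY115 mice and 1.19 ± 0.178% in PVN of vehicle mice (SD, n = 10 each). The PVN vehicle shares ran from 1.04 to 1.62%, with a median of 1.12%. In ARC the shares were 1.1 ± 0.0669% with IP118/PY115 (n = 10) and 1.13 ± 0.0587% with vehicle (n = 9). In NTS they were 1.38 ± 0.0987% with IP118/PY115 and 1.35 ± 0.0769% with vehicle (n = 10 each). Per kilobase of transcript, Atp5b, the catalytic beta subunit of ATP synthase, had the highest level in vehicle mice in all 3 regions: 629.7 ± 41.8 CPM per kb in PVN, 526.2 ± 31.1 in ARC and 751 ± 129 in NTS (SD). Behind it came Ndufa4, Atp5g3 for the membrane ring subunit c, Cox8a, and Atp5a1 for the alpha subunit, in an order that varied by region.

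Levels spread widely within each complex on the per-kilobase scale. In complex I, Ndufc2 was highest, with 251 ± 123 CPM per kb in PVN, 222 ± 19.96 in ARC and 234 ± 19.9 in NTS. Ndufb4 was lowest there, with 14.3 ± 4.07, 13.3 ± 2.58 and 15.2 ± 4.89 CPM per kb. In complex II, Sdha for the flavoprotein that oxidises succinate had 226 ± 6.03, 196 ± 6.69 and 239.6 ± 28.2 CPM per kb, against 37.2 ± 3.48, 37.5 ± 2.46 and 50.5 ± 2.83 for the membrane anchor Sdhc. Uqcrh, the hinge subunit next to cytochrome c1, led complex III with 395 ± 189, 324 ± 42.5 and 379 ± 39.03 CPM per kb. Atp5l stood lowest in complex V, at 6.5 ± 2.83, 6.94 ± 2.64 and 6.14 ± 2.38 CPM per kb. For Atp5l, 68.5% of the 50-base stretches of its shortest principal transcript also occur in other genes, so its counts depend on how shared reads were treated. The same holds for Atp5g2 (100%), Atp5h (66.6%), Atp5g1 (66.0%) and Cox7c (53%), while 46 members share no 50-base stretch. A further 17 members share 10 to under 50%, among them Ndufb4 (37%).

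Between regions, the summed level of the members was highest in NTS and lowest in ARC. Summed over all 84 members, vehicle libraries had 12267 ± 2099 CPM in PVN (n = 10), 11031 ± 536 CPM in ARC (n = 9) and 13483 ± 877 CPM in NTS (n = 10, SD). The lowest, median and highest PVN libraries had 10688, 11434 and 17638 CPM, those of ARC 10439, 10966 and 11791 CPM, and those of NTS 12362, 13296 and 14939 CPM. No ARC vehicle library reached the lowest NTS vehicle library, and PVN overlapped with both. Without vehicle library 10 the PVN sum was 11670 ± 975 CPM (n = 9). Of the 84 members, 81 passed the filter on low counts in the fit of all libraries, and Cox7b2, Cox8b and Cox8c did not. By group mean, 51 of the 81 members tested ran NTS over PVN over ARC, ARC was lowest for 63 and NTS highest for 60. These counts were 43, 47 and 68 without PVN vehicle library 10. In bulk tissue, fewer cells of a type and less RNA per cell cannot be told apart.

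**Figure D1:**
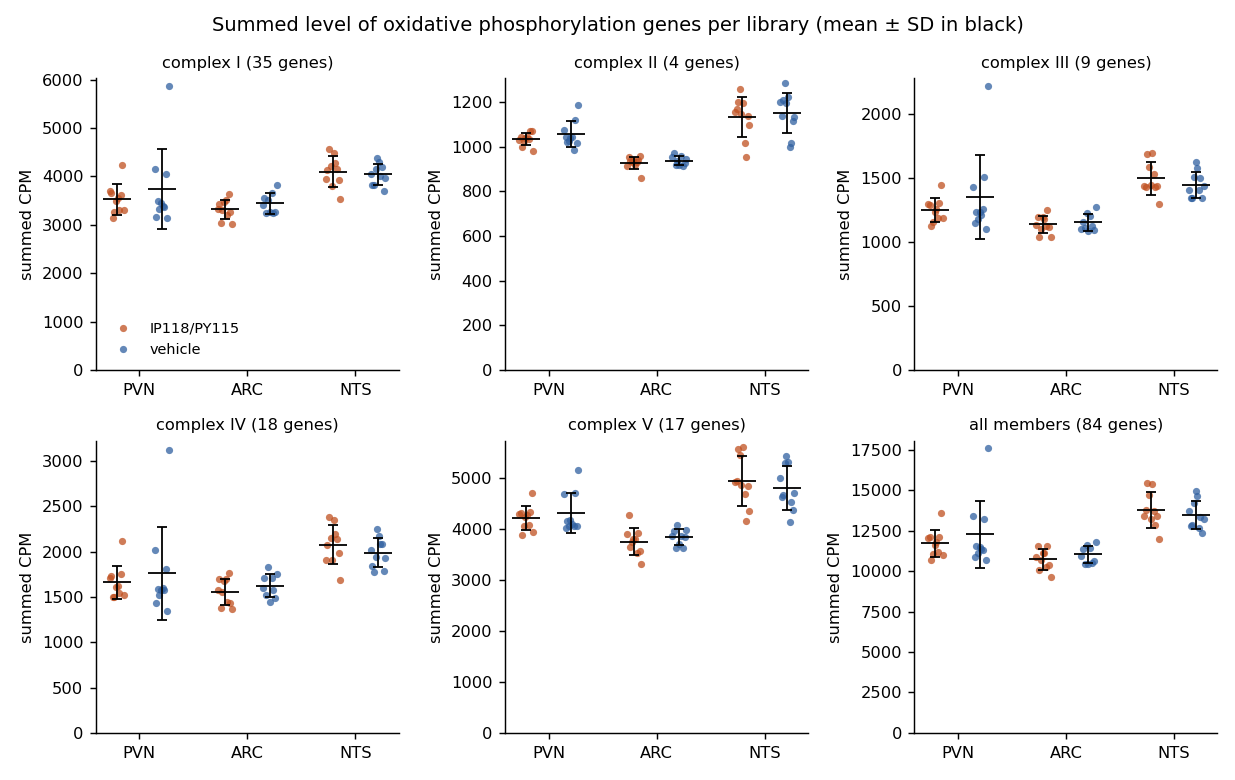
Summed level in CPM of the genes of complexes I to V and of all 84 members, 1 point per library, with IP118/PY115 libraries left of vehicle libraries in each region and the mean ± SD in black. The NTS mean stands above the ARC mean in every panel, treatment groups overlap throughout, and 1 PVN vehicle library (library 10, 17638 CPM over all members) stands above the rest in complexes I, III and IV.

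By edgeR, called members were most numerous between the ARC and NTS vehicle libraries, whereas limma-voom called 63 there and 67 between PVN and NTS. Of the 81 members tested, 54 were called at a Benjamini-Hochberg adjusted p (FDR) under 0.05 by edgeR's quasi-likelihood test, 51 lower in ARC and 3 higher (Cox6a2, which passed the low-count filter through ARC alone, Cox7a2l and Atp5g1), where 61.7% of all 14379 genes tested were called (31.5% lower and 30.2% higher). The median log2 fold change of the members was -0.29, against -0.006 over all genes tested. Called lower in ARC were 17 of 35 members of complex I, 3 of 4 of complex II, 7 of 9 of complex III, 11 of 15 tested of complex IV, 12 of 17 of complex V, and Cycs. In the IP118/PY115 libraries the same contrast called 64 members, 62 lower and 2 higher (63.8% of all genes, 33.1% lower and 30.7% higher), with a median of -0.33. Of the 54 called in vehicle mice, 53 were called in the same direction there. PVN vehicle library 10 is in neither group but is part of the joint fit. Without it the vehicle contrast called 60 members lower and 3 higher, with a median of -0.29. Called lower then were 21, 4, 9, 12 and 13 members of complexes I to V, and Cycs. Without the libraries numbered 1, the vehicle contrast called 52 members, 49 lower and 3 higher, with a median of -0.28. Without the 4 NTS libraries 5738 to 5741 of the titles, which stood apart in composition, it called 51, 49 lower and 2 higher, with a median of -0.26.

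Among members of at least 5 CPM, the largest falls in ARC against NTS were in complex IV and III genes. Cox6a1, the widely expressed form of a regulatory subunit of cytochrome c oxidase, had a lowest, median and highest level of 87.8, 107 and 126 CPM in ARC vehicle libraries, against 148, 168 and 204 CPM in NTS. The groups did not overlap, and the log2 fold change was -0.69 ± 0.08 (SE, FDR = 1.97e-11, edgeR). Cyc1, the cytochrome c1 that hands electrons to cytochrome c, had 104, 114 and 145 CPM in ARC, against 158, 179.9 and 202 CPM in NTS, again without overlap (-0.63 ± 0.07, FDR = 2.72e-11, edgeR). Cox5a, a core nuclear subunit of complex IV, had 132, 145 and 162 CPM in ARC, against 189, 216 and 255 CPM in NTS (-0.60 ± 0.07, FDR = 2.72e-11, edgeR). The lowest NTS library was above the highest ARC library here too. Uqcr10, a small complex III subunit, followed with -0.51 ± 0.11 (FDR = 7.7e-05), Atp5b with -0.51 ± 0.08 (FDR = 1.23e-07) and Atp5d, the delta subunit of the ATP synthase stalk, with -0.50 ± 0.06 (FDR = 4.75e-10, edgeR). For Atp5b the groups overlapped slightly, at 929, 1008 and 1129 CPM in ARC, against 997, 1435 and 1728 CPM in NTS.

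Without overlap, 13 members were lower in ARC than in NTS, where 12.4% of all genes tested lay so, and Cox6a2, whose filter depended on ARC, was higher, where 10.2% did. They included Atp5d, Atp5o, Cox5a, Cox6a1, Cox6b2, Cyc1, Ndufv2, Sdhc and Uqcr10. Ndufv1, the complex I subunit that binds NADH, fell by 0.45 on the log2 scale (FDR = 6.13e-09, edgeR). Against this trend, Cox7a2l, the third gene of the COX7A family, was higher in ARC: 119, 134 and 172 CPM, against 99.2, 116 and 126 CPM in NTS. Its log2 fold change was 0.29 ± 0.07 (FDR = 0.000698, edgeR), with overlap between the groups. Atp5g1, 1 of 3 genes for the same ATP synthase ring protein, stood at 0.16 ± 0.07 (FDR = 0.0401, edgeR) in vehicle mice, at 0.13 without NTS libraries 5738 to 5741 (FDR = 0.111) and at 0.002 in IP118/PY115 mice (FDR = 0.985).

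**Figure D2:**
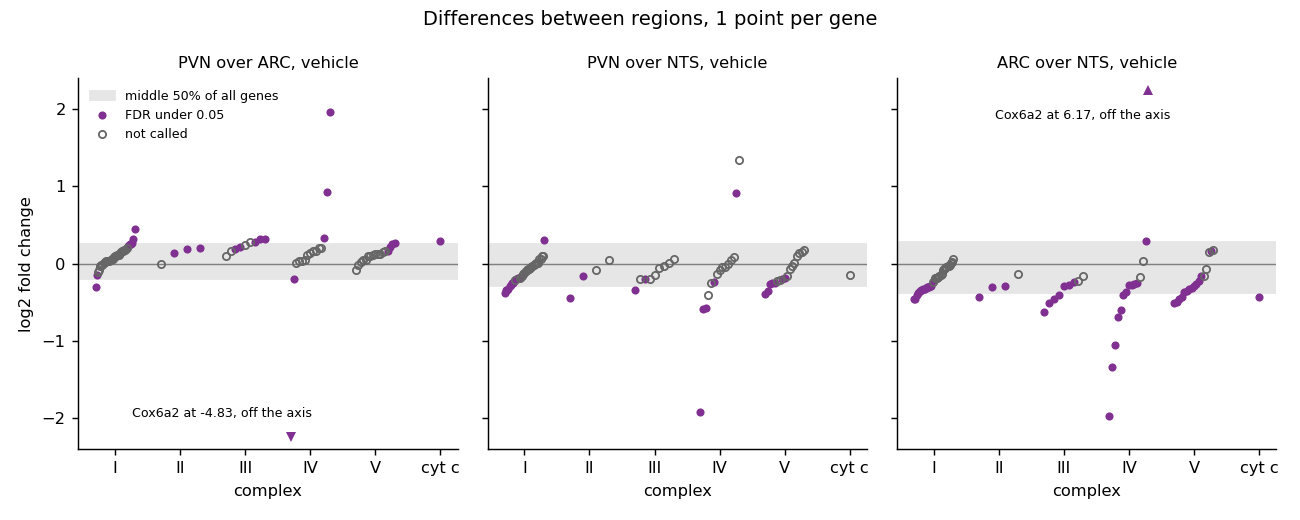
Log2 fold changes between regions in vehicle mice, 1 point per member, sorted within each complex, with filled points at an FDR under 0.05 and the middle 50% of all genes tested in grey. The median of each complex lies below 0 for ARC over NTS, and Cox6a2, at 6.17 and -4.83, lies off the axis and is drawn as a triangle at its edge.

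Cell type markers moved with this contrast. All 10 mature oligodendrocyte markers were called lower in ARC than in NTS (median log2 fold change -2.57), with a summed level of 491 to 1350 CPM in ARC vehicle libraries, against 2278 to 6951 CPM in NTS. All 8 astrocyte markers were also called lower, with a median of -1.72 and sums of 1924 to 2551 CPM in ARC, against 4485 to 6795 CPM in NTS. Of 8 neuron markers, 7 were called lower and 1 higher (median -0.51). Lower too were all 6 endothelial markers (median -0.96), all 5 red blood cell markers (-1.79) and 2 of 8 microglia markers (-0.17). With the mean oligodendrocyte marker level as a covariate in the same fit, 17 members were called in place of 54 and their median was -0.14. For this and the other alternative fits between regions, the share of all genes called is not given. A change in the members' count is therefore not read as particular to them. The marker sums did not overlap between ARC and NTS vehicle libraries, so there this covariate and the region cannot be told apart. In IP118/PY115 libraries, which the fit also used, they ran from 505 to 6014 CPM in ARC and 2116 to 9861 CPM in NTS. The part of the cell mixture in the difference was not tested.

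PVN lay below NTS for 60 of 81 members, and the number called turned on 1 library and on the tool. In vehicle mice 30 of 81 members were called by edgeR, 28 lower in PVN and 2 higher, where 56.1% of all genes were called (27.8% lower and 28.3% higher). The members' median log2 fold change was -0.14, against 0.002 over all genes. Without PVN vehicle library 10, 59 members were called, 58 lower and 1 higher, with a median of -0.22, and without the libraries numbered 1 it was 31, 28 lower and 3 higher, with a median of -0.15. IP118/PY115 libraries gave 48 called members, 47 lower and 1 higher (58.8% of all genes, 31% lower and 27.8% higher), with a median of -0.24, and 28 of the 30 were among them in the same direction. PVN vehicle library 10 is in neither of those groups, but the joint fit's shared estimate of spread includes it. All 10 oligodendrocyte markers were called lower in PVN as well (median -2.07), and with their level as a covariate 16 members were called, with a median of -0.064. Of 8 astrocyte markers, 7 were called lower and 1 higher (median -1.42). Called lower were also 6 of 8 microglia markers (-0.43) and all 5 red blood cell markers (-1.14), all 6 endothelial markers were called higher (0.998), and of 8 neuron markers 4 were called lower and 2 higher (-0.085). Their part in the difference was not tested.

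By complex the median log2 fold change of PVN over NTS ran from -0.18 in complex V to -0.081 in complex IV, and without PVN vehicle library 10 from -0.27 in complex IV to -0.14 in complex II. Among called members of at least 5 CPM, Cox6a1, Cox5a and Sdhc fell most. Sdhc, the large membrane anchor of succinate dehydrogenase, had a lowest, median and highest level of 94.6, 122 and 129 CPM in PVN vehicle libraries, against 147, 160.1 and 179 CPM in NTS. The groups did not overlap (-0.44 ± 0.05, FDR = 2.26e-12, edgeR), and ARC lay with PVN at 109, 116 and 134.5 CPM (PVN over ARC -0.01 ± 0.05, FDR = 0.882). Cox5a had 125, 150.3 and 172 CPM in PVN, below every NTS library (-0.57 ± 0.07, FDR = 8.64e-11, edgeR). For Cox6a1 the PVN levels were 91.3, 111 and 142 CPM, also below every NTS library (-0.58 ± 0.08, FDR = 2.26e-09, edgeR). Next were 2 ATP synthase stalk subunits and a complex I membrane subunit: Atp5e (-0.39 ± 0.09, FDR = 0.00021), Ndufc1 (-0.38 ± 0.09, FDR = 0.000204) and Atp5d (-0.35 ± 0.06, FDR = 1.82e-06, edgeR). In all, 4 members lay below NTS without overlap, Cox5a, Cox6a1, Cox6b2 and Sdhc, where 6.94% of all genes did. Without PVN vehicle library 10, Sdhc, Cox5a and Cox6a1 were at -0.41, -0.57 and -0.59, and Atp5e, Ndufc1 and Atp5d at -0.45, -0.41 and -0.34 (all called).

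PVN lay above ARC for 69 of 81 members in vehicle mice, but for 49 without PVN vehicle library 10. Of 81 members, 27 were called in vehicle mice by edgeR, 23 higher in PVN and 4 lower, where 46% of all genes were called (24.8% higher and 21.1% lower). The median log2 fold change was 0.13, against 0.012 over all genes. Cox6a2, which passed the low-count filter through ARC alone, is among the lower members in each count of this contrast. Its call is not taken as a test. Without PVN vehicle library 10 the count was 17, 13 higher and 4 lower, and the median 0.039, with -0.003 in complex I and 0.002 in complex IV. With limma-voom the median was 0.017, the lowest of the alternatives run. Without the libraries numbered 1 it was 18, 14 higher and 4 lower, with a median of 0.10. Scaled to library totals alone it was 15, with a median of 0.057, where all genes shifted to -0.055. The IP118/PY115 libraries gave 23 called members, 20 higher and 3 lower (48.7% of all genes, 24.7% higher and 24.1% lower), with a median of 0.11, and 16 of the 27 were among them in the same direction. All 6 endothelial markers were called higher in PVN (median 1.88), and of 8 neuron markers 6 were called higher and 1 lower (0.41). Called higher were also 4 of 8 astrocyte markers (0.28), 3 of 10 oligodendrocyte markers (0.51) and 2 of 5 red blood cell markers (0.73), while 3 of 8 microglia markers were called lower (-0.20). With the oligodendrocyte markers as a covariate 16 members were called and the median was 0.11. The part of the other cell types was not tested.

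Sdha was the steadiest of the members that separate PVN from ARC. It had a lowest, median and highest level of 617, 657 and 681 CPM in PVN vehicle libraries, against 533.5, 570.5 and 594 CPM in ARC. The groups did not overlap (0.21 ± 0.05, FDR = 0.000771, edgeR), and the value was 0.20 without PVN vehicle library 10 (FDR = 0.00113) and 0.22 in IP118/PY115 mice (FDR = 0.000207). Its coefficient of variation, 2.66% in PVN vehicle libraries and 2.69% in PVN IP118/PY115 libraries, was the lowest of the 76 members with a mean of at least 5 CPM. Ndufa1, a small complex I membrane subunit encoded on the X chromosome, had 63.9, 71.7 and 153 CPM in PVN, against 53.7, 60.3 and 74.0 CPM in ARC (0.45 ± 0.10, FDR = 0.000219, edgeR). The PVN maximum was library 10, and without it the value was 0.31 (FDR = 0.00122). Against NTS, Ndufa1 was also called higher in PVN (0.30 ± 0.10, FDR = 0.00682, edgeR), but without library 10 it stood at 0.16 (FDR = 0.0696).

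Several of the other leading differences between PVN and ARC depended on library 10. Cox7b, a small complex IV subunit, stood at 0.33 with it and at 0.10 without it (FDR = 0.0336 and 0.355, edgeR). Uqcr10 stood at 0.32 and 0.19 (FDR = 0.017 and 0.108), Uqcrq, another small complex III subunit, at 0.31 and 0.23 (FDR = 0.0158 and 0.066), and Cycs, cytochrome c itself, at 0.30 and 0.16 (FDR = 0.0107 and 0.0945, edgeR). Ndufv2, an iron-sulfur subunit of complex I, stood at 0.32 and 0.14 (FDR = 0.0056 and 0.0479, edgeR). In IP118/PY115 mice Cycs and Uqcrq were called, at 0.33 and 0.27 (FDR = 0.00235 and 0.0301), while Cox7b, Uqcr10 and Ndufv2 stood at 0.25, 0.18 and 0.11 (FDR = 0.0985, 0.159 and 0.37, edgeR). Lower in PVN were Ndufv3, an accessory subunit of the NADH-binding module (-0.30 ± 0.09, FDR = 0.0047, and -0.39 without library 10), and Cox7a2l (-0.20 ± 0.08, FDR = 0.0212, and -0.30 without it). Ndufa8, an accessory complex I subunit of the intermembrane space, was at -0.14 ± 0.05 (FDR = 0.0243, edgeR), and at -0.12 without library 10 (FDR = 0.06) and 0.035 in IP118/PY115 mice (FDR = 0.602).

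Of the rarer forms of complex IV subunits in vehicle mice, Cox6a2 was highest in ARC, Cox6b2 in NTS and Cox7a1 in PVN. Cox6a2 is the striated muscle partner of Cox6a1. It lies at chr7:128205435-128206387 on the minus strand of GRCm38, and it passed the low-count filter through ARC, where it is high, so its differences from ARC are given as descriptions with no test. Its lowest, median and highest levels in vehicle libraries were, for PVN, 0, 0.135 and 0.448 CPM, for ARC 3.45, 5.86 and 9.15 CPM, and for NTS 0, 0.0259 and 0.282 CPM. Summed over vehicle libraries, PVN held 18 counts, ARC 518 and NTS 9, and every ARC library lay above every library of the other regions. The fitted log2 fold change was -4.83 ± 0.42 for PVN over ARC and 6.17 ± 0.46 for ARC over NTS. In IP118/PY115 mice ARC libraries had 2.19, 5.20 and 8.04 CPM, and the same contrasts were -5.80 ± 0.46 and 5.003 ± 0.405. Cox6a2 made up 4.53 ± 1.52% of the summed per-kilobase level of the COX6A pair in ARC vehicle libraries, against 0.125 ± 0.117% in PVN and 0.0324 ± 0.0433% in NTS. PVN over NTS was not called (1.34 ± 0.66, FDR = 0.0798, edgeR), and had the other sign in IP118/PY115 mice (-0.80 ± 0.65, FDR = 0.295).

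Cox6b2, the testis form of the subunit that bridges the complex IV dimer, was highest in NTS (chr7:4751792-4753094, minus strand). The PVN vehicle libraries had 0, 1.25 and 1.94 CPM, those of ARC 0.395, 0.861 and 1.85 CPM, and those of NTS 3.56, 4.48 and 5.63 CPM. All NTS libraries lay above all others. The log2 fold change was -1.93 ± 0.27 for PVN over NTS (FDR = 7.74e-09) and -1.97 ± 0.28 for ARC over NTS (FDR = 6.26e-09, edgeR), while PVN over ARC was 0.045 ± 0.30 (FDR = 0.92). IP118/PY115 mice gave -2.09 ± 0.26 and -2.37 ± 0.26 for the same pairs (FDR = 2.13e-10 and 5.24e-12, edgeR). The common form Cox6b1 still took 97.6 ± 0.271% of the pair's per-kilobase level in NTS.

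Cox7a1, the muscle and heart form of its subunit, was highest in PVN (chr7:30184144-30186078, plus strand). Its levels in vehicle mice were 2.27, 3.27 and 5.03 CPM for PVN, 0.215, 0.968 and 1.57 CPM for ARC, and 0.885, 2.09 and 2.68 CPM for NTS. PVN lay above ARC without overlap, where 6.41% of all genes did (1.97 ± 0.31, FDR = 2.89e-07, edgeR), and overlapped with NTS (0.91 ± 0.28, FDR = 0.0043, edgeR). ARC lay below NTS (-1.06 ± 0.32, FDR = 0.00295, edgeR), but with the oligodendrocyte marker covariate the sign turned, to 0.28 ± 0.45, and the call was lost (FDR = 0.654). Ndufa4l2, a hypoxia-inducible relative of Ndufa4 (chr10:127514967-127517154, plus strand), had 1.85, 3.30 and 6.80 CPM for PVN, 0.921, 1.73 and 3.05 CPM for ARC, and 3.14, 4.67 and 6.91 CPM for NTS. It was lower in ARC than in NTS without overlap (-1.34 ± 0.23, FDR = 1.3e-06) and higher in PVN than in ARC (0.93 ± 0.24, FDR = 0.00105, edgeR). Cox4i2 is the oxygen-responsive form of a subunit outside the naming rule. Its log2 fold change was 1.26 ± 0.28 for PVN over ARC and -1.10 ± 0.27 for ARC over NTS. It passed the low-count filter in PVN and in NTS but not in ARC, so these values are descriptions with no test.

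Endothelial markers moved with Cox7a1 in all 3 contrasts, and with Ndufa4l2 and Cox4i2 in the contrasts with ARC. The 6 of them summed to 391 to 715 CPM in PVN vehicle libraries, 102 to 154 CPM in ARC and 212 to 280.0 CPM in NTS. All 6 were called higher in PVN than in ARC (median 1.88) and lower in ARC than in NTS (median -0.96). They were also called higher in PVN than in NTS (median 0.998), where Ndufa4l2 stood at -0.41 ± 0.22 (FDR = 0.1, edgeR). Their part in these results was not tested. Of the remaining forms, Cox7b2 averaged 0.29 CPM in PVN, 0.0775 in ARC and 0.509 in NTS vehicle libraries. Cox8b had 0 counts in PVN vehicle libraries, which allows up to 0.0332 CPM over the group, 6 counts in ARC and 2 in NTS. Cox8c had 5 counts in 1 ARC library of an IP118/PY115 mouse and none elsewhere. Among the 3 genes for ATP synthase subunit c, Atp5g3 took 87.4 ± 2.11% of the per-kilobase level in PVN, 86.7 ± 1.25% in ARC and 89.8 ± 0.889% in NTS vehicle libraries. These shares depend on the lengths taken, 2675.5 nt for Atp5g1, 586 nt for Atp5g2 and 718.5 nt for Atp5g3. A shorter length for Atp5g1 would lower the share of Atp5g3. In the COX7A trio, Cox7a2l took 32.6 ± 3.41% in PVN, 38.7 ± 2.95% in ARC and 29.8 ± 2% in NTS.

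**Figure D3:**
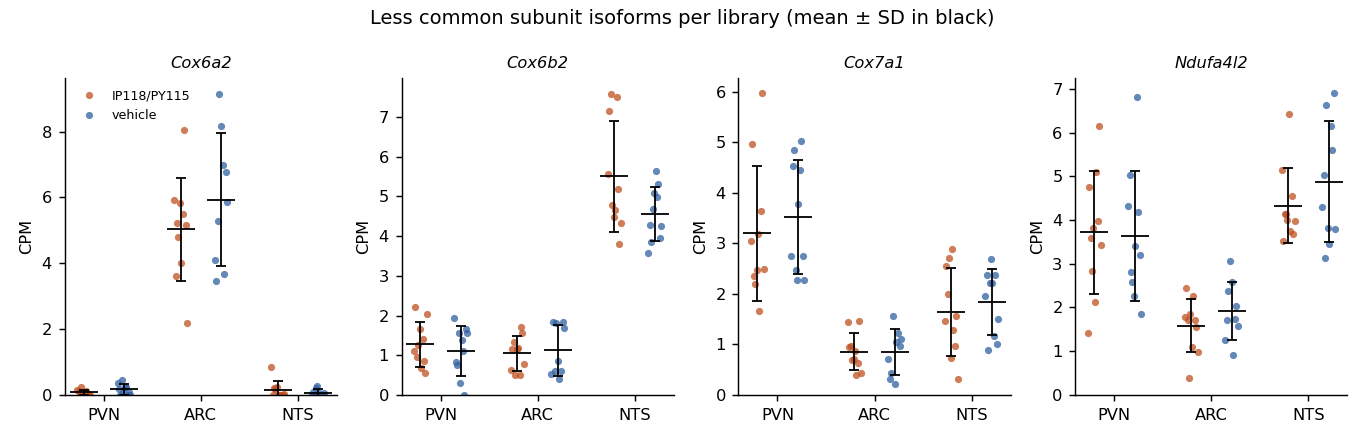
Level in CPM of Cox6a2, Cox6b2, Cox7a1 and Ndufa4l2, 1 point per library, with IP118/PY115 left of vehicle and the mean ± SD in black. Cox6a2 is at 3.45 to 9.15 CPM in ARC vehicle libraries and at most 0.448 CPM in the other vehicle libraries, Cox6b2 is highest in NTS, Cox7a1 in PVN, and Ndufa4l2 is lowest in ARC.

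Other gene lists around the respiratory chain were counted in the ARC and NTS contrast, where 31.5% of all genes were called lower and 30.2% higher. Of 13 tricarboxylic acid cycle genes, which supply its electrons, 12 were called lower in ARC than in NTS and none higher (median -0.35 on the log2 scale). Of 44 assembly factors 14 were called lower and 5 higher (median -0.047), and of 77 mitochondrial ribosomal protein genes 16 lower and 7 higher (median -0.031). Of 14 regulators of mitochondrial gene expression, 3 were called lower and 3 higher (median 0). Cytosolic ribosomal protein genes, also short and abundant, went the other way, with 71 of 82 called higher in ARC and none lower (median 0.53). Between PVN and ARC, 10 of 13 tricarboxylic acid cycle genes were called higher in PVN and none lower (median 0.23). Their sum ran from 2591 to 3139 CPM in PVN vehicle libraries and from 2295 to 2518 CPM in ARC. The members' median was 0.13 there, and 0.039 without PVN vehicle library 10. Of 82 ribosomal protein genes, 1 was called higher in PVN and 29 lower (median -0.18). Outside the naming rule, Cox4i1, the main form of its complex IV subunit, fell by 0.42 in ARC against NTS (FDR = 7.66e-08) and by 0.35 in PVN against NTS (FDR = 3.51e-06, edgeR).

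After IP118/PY115, no member passed the test in any region. In PVN, 0 of 80 members tested were called (Cox6a2 was too low to test there and in NTS) by edgeR, where 0.656% of all genes were, and 2 had an unadjusted p under 0.05 (9.34% of all genes). In ARC 0 of 81 were called (background 0) and 6 had p under 0.05, all lower (7.2% of all genes), and in NTS 0 of 80 were called (background 0) and 0 had p under 0.05 (5.8%). Without the libraries numbered 1, edgeR called 3.22% (PVN), 1.14% (ARC) and 1.18% (NTS) of all genes and still 0 members, with 0, 5 and 0 members at an unadjusted p under 0.05. DESeq2 and limma-voom also called 0 in each region, with 2 and 0 at an unadjusted p under 0.05 in PVN, 5 and 5 in ARC, and 0 and 0 in NTS. Summed over all members, IP118/PY115 libraries had 11720.2 ± 846 CPM in PVN, against 12267 ± 2099 CPM with vehicle. The sums were 10726 ± 639 CPM with IP118/PY115 in ARC, against 11031 ± 536 CPM with vehicle, and 13790.2 ± 1097 CPM with IP118/PY115 in NTS, against 13483 ± 877 CPM with vehicle. The groups overlapped in each region.

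The direction of the small differences varied by region. In PVN 12 members were higher and 68 lower with IP118/PY115, with a median log2 fold change of -0.063, against -0.019 over all genes. Without PVN vehicle library 10 it was 45 higher and 35 lower, with a median of 0.016. Without the libraries numbered 1 it was 19 higher and 61 lower, with a median of -0.068. In ARC 17 were higher and 64 lower (median -0.049, against 0 over all genes, and -0.052 without the libraries numbered 1). In NTS 57 were higher and 23 lower (median 0.026, against 0.001, and 0.035 without the libraries numbered 1). Other lists moved with these small differences, with none of their genes called. In PVN, 65 of 82 cytosolic ribosomal protein genes (median -0.079), all 8 astrocyte markers (-0.114) and 8 of 10 oligodendrocyte markers (-0.122) were lower with IP118/PY115. These values include vehicle library 10, which held 30706 CPM of ribosomal protein genes and 4091 CPM of astrocyte markers, the highest of its group. The group medians were 16161 and 2723 CPM with vehicle, against 16518 and 2629 CPM with IP118/PY115. The lists are not given without that library. In ARC, 75 of 82 ribosomal protein genes were lower (-0.063) and all 10 oligodendrocyte markers higher (1.02), and in NTS 9 of 10 oligodendrocyte markers were higher (0.24). Their part in the members' differences was not tested. By complex the medians in PVN ran from -0.107 in complex III to -0.042 in complex II (and from -0.01 in complex II to 0.038 in complex IV without library 10), those in ARC from -0.091 in complex IV to -0.001 in complex II, and those in NTS from -0.017 in complex II to 0.061 in complex IV.

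The members with the smallest p did not pass the correction. In PVN, Ndufb4, a complex I membrane subunit, had a lowest, median and highest level of 9.54, 11.1 and 14.5 CPM with IP118/PY115, against 10.9, 12.2 and 23.3 CPM with vehicle. The groups overlapped and the vehicle maximum was library 10 (-0.29 ± 0.13, p = 0.0283, FDR = 0.429, edgeR, and -0.17 without that library, FDR = 0.58). Atp5s, a factor associated with the ATP synthase, had 23.7, 27.2 and 30.2 CPM with IP118/PY115, against 22.3, 31.6 and 56.5 CPM with vehicle (-0.24 ± 0.11, FDR = 0.48, edgeR, and -0.11 without library 10, FDR = 0.629). Ndufa9, Uqcrq and Ndufv3 followed at -0.11, -0.20 and -0.18 (FDR = 0.684, 0.684 and 0.715), and at -0.061, -0.12 and -0.087 without library 10. In ARC, Ndufb11, an X-linked complex I subunit, had 91.0, 99.0 and 119 CPM with IP118/PY115, against 104, 115 and 127 CPM with vehicle (-0.16 ± 0.05, p = 0.00529, FDR = 0.37, edgeR). Ndufs6, Ndufs5, Atp5k and Ndufv3 stood at -0.19, -0.20, -0.20 and -0.16 there (FDR = 0.403, 0.653, 0.653 and 0.656). In NTS, Cox6b2 had 3.80, 4.98 and 7.59 CPM with IP118/PY115, against 3.56, 4.48 and 5.63 CPM with vehicle (0.26 ± 0.15, FDR = 0.981, edgeR). Sdhc, Atp5j, Cox6a1 and Uqcrh stood at -0.081, 0.089, 0.096 and 0.077 (FDR = 0.995, 0.999, 0.999 and 0.999).

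**Figure D4:**
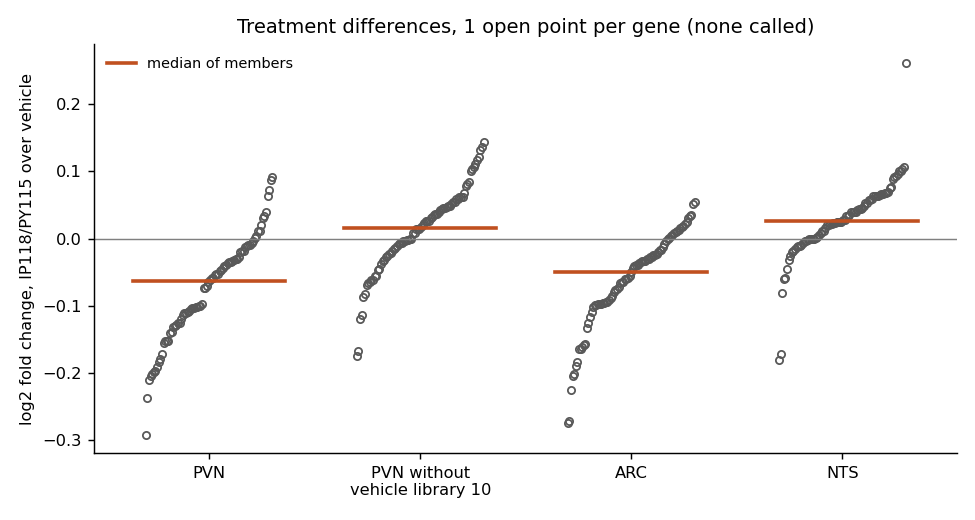
Log2 fold change of IP118/PY115 over vehicle, 1 open point per member tested, sorted within each column, with the members' median as a bar. Medians are -0.063 in PVN, 0.016 in PVN without vehicle library 10, -0.049 in ARC and 0.026 in NTS, and no member was called.

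Tests of the treatment effect in 1 region against another called no member. For PVN against ARC 0 of 81 were called by edgeR (0.0487% of all genes) and 3 had an unadjusted p under 0.05 (6.21% of all genes). For PVN against NTS 0 were called (0.0904%) and 3 had such a p (4.28%), and for ARC against NTS 0 were called (background 0) and 1 had such a p (3.76%). DESeq2 called 0 in each, with 3, 2 and 0 at an unadjusted p under 0.05, and limma-voom called 0 in each, with 6, 0 and 3. With PVN vehicle library 10 left out, edgeR again called 0 in each, with 7, 1 and 3. The smallest p for PVN against ARC was that of Ndufa8 (0.18 ± 0.07, FDR = 0.705), for PVN against NTS that of Cox6a2 (-2.13 ± 0.93, FDR = 1), which is near 0 CPM in both regions, and for ARC against NTS that of Ndufs5 (-0.28 ± 0.14, FDR = 1, edgeR).

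Single libraries varied more than the treatment groups did. PVN vehicle library 10 held 17638 CPM of member transcripts, 63 of 76 members lay above the PVN median, and the median log2 deviation was 0.73. Its cytosolic ribosomal protein genes summed to 30706 CPM, against a median of 16161 CPM in PVN vehicle libraries. For all genes the median deviation fell with transcript length. It was 0.76 for transcripts up to 600 nt, 0.43 above that up to 1000 nt, 0.082 up to 2000 nt and -0.046 for longer ones. Members in these classes stood at 0.98 (20 genes), 0.74 (25), 0.79 (23) and 0.29 (8), above all genes in each class. The other 19 PVN libraries lay between -0.22 and 0.36 for all genes up to 600 nt. Among members of mean level at least 5 CPM, Cox7c (1.46), Uqcrh (1.46), Ndufc2 (1.44), Cox7b (1.43) and Ndufa4 (1.43) deviated most, while Ndufa8 (-0.31), Sdhc (-0.31) and Uqcrc1 (-0.29) went the other way. The part of RNA quality or fragment size in this library was not tested.

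**Figure D5:**
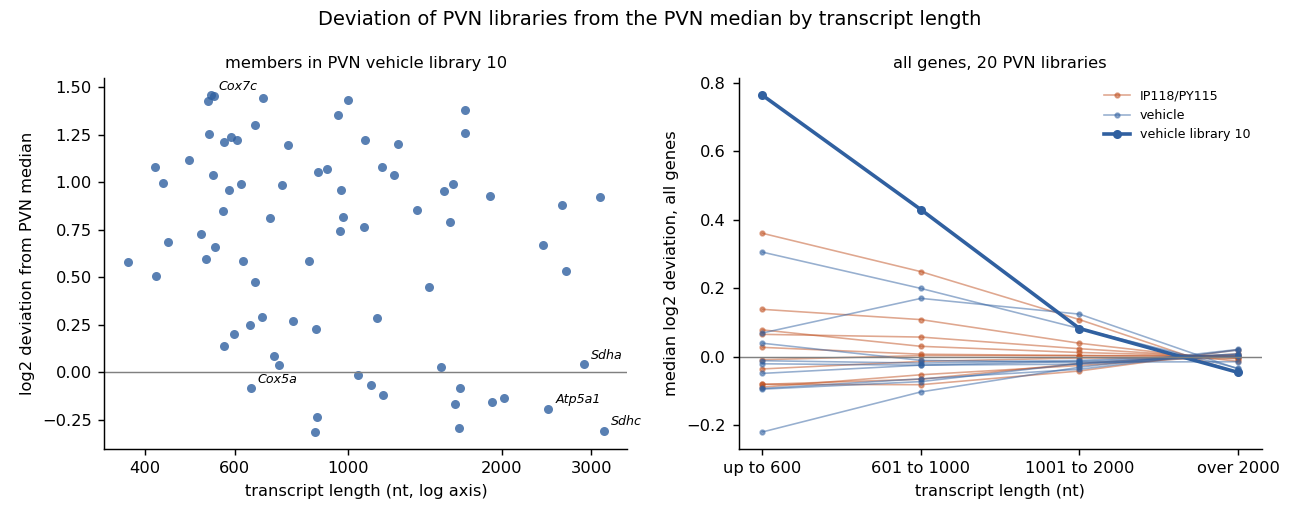
Log2 deviation from the PVN median against transcript length, for each member in PVN vehicle library 10 (left, log length axis) and as the median over all genes in 4 length classes for each of 20 PVN libraries (right). Vehicle library 10 stands at 0.76 for transcripts up to 600 nt, against -0.22 to 0.36 in the other 19 libraries, and near 0 above 2000 nt.

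Other libraries moved less. PVN IP118/PY115 library 9 held 13620.5 CPM of member transcripts (median deviation 0.26), with 0.36 for all genes up to 600 nt. PVN vehicle libraries 1 and 8 had median deviations of 0.22 and 0.15. In NTS, IP118/PY115 libraries 3 and 6 lay at 0.17 and 0.17, with oligodendrocyte marker sums of 9861 and 8302 CPM, and IP118/PY115 library 10 was lowest, with 2 of 76 members above the NTS median (-0.23) and a marker sum of 3359 CPM. But IP118/PY115 library 8, with the lowest marker sum of NTS (2116 CPM), lay at 0.044, and vehicle library 2, with 5538 CPM, at -0.10. The part of oligodendrocyte content in these deviations was not tested. The median coefficient of variation of members was 10.9% in IP118/PY115 and 24.5% in vehicle libraries of PVN, against 9.76% and 14.6% for all genes of at least 5 CPM. Without vehicle library 10 it was 13.2% in PVN vehicle libraries, against 11.8% for all genes. In ARC it was 10.0% with IP118/PY115 and 9.4% with vehicle, against 11.8% and 11.4% for all genes, and in NTS 11.3% with IP118/PY115 and 9.3% with vehicle, below the 12.1% and 12% of all genes.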

How the data were processed

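The deposited table holds raw read counts per Ensembl gene for 59 libraries, not normalized by the authors. Reads were demultiplexed with bcl2fastq 2.20.0.422 and aligned to GRCm38 with STAR 2.5.2a, per the submitters' processing notes, and a stranded mRNA kit was used, per the labels' protocols. The read counter, its strand setting and the annotation are not given in the sources used here. Symbols came from GENCODE vM21, on GRCm38, for 21858 of 21935 IDs. No 2 library columns were identical, 2834 genes had no count, and totals ran from 3964093 to 28510118 counts. Errors describe the spread between libraries only.

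Groups follow the labels, and libraries are numbered in deposited order. Treatment was tested in each region separately by edgeR's robust quasi-likelihood test (edgeR 4.0.16, R 4.3.3), on TMM-scaled counts of the genes that filterByExpr kept at a minimum count of 10 and a minimum total of 15. Region contrasts and differences of treatment effect came from 1 joint fit of all 59 libraries. Genes with a Benjamini-Hochberg adjusted p under 0.05 over all genes tested were called, two-sided. CPM values use the joint TMM scale, SE is the log2 fold change over the square root of F, and deviations per library use log2(CPM + 1). Transcript length is the median over a gene's principal coding transcripts in GENCODE, those with the best APPRIS tag. Shared 50-base stretches were counted on the shortest principal transcript of each member, against the GENCODE transcripts of all other genes.

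Members, lists and rules were chosen with earlier results of these data known, so lists carry no test of their own. Named were called members (beyond 12, the 6 largest in each direction of at least 5 CPM), or, with fewer than 4 called, the 5 of smallest p, and paired forms, Sdh genes, Cyc1, Cycs and extremes of level. Other members, such as Ndufv1 in the ARC contrast and those listed by library, were chosen after their values were seen. Alternatives were DESeq2 1.42.0, limma-voom 3.58.1 with quality weights, other scalings, filters, thresholds and covariates, and libraries left out.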

Additional observations from a re-analysis of the deposited data

Results flagged for a closer look

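Each of 42 named genes and 6 summed levels was screened in the 6 groups for a single library that lies far from the rest of its group. Of 288 such groups of values, 55 (19.1%) held one, where chance alone gives about 1 in 20 (5%). The values below are CPM in the library concerned, and most belong to the same few libraries, so they are not independent.

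PVN vehicle library 10 was the highest of its group in 22 cases. It held 17638.0 CPM summed over all members, 5874.3 over complex I, 2219.5 over complex III and 3126.1 over complex IV. In complex I it was high for Ndufa1 (152.9), Ndufa6 (230.3), Ndufb11 (225.1), Ndufs6 (118.0) and Ndufv2 (469.6), and in complex II for Sdhd (240.8). Beside these stood Uqcr10 (186.0), Uqcrh (496.9) and Cycs (63.0). In complex IV it was high for Cox6b1 (348.3), Cox7a2 (336.1), Cox7a2l (194.7), Cox7b (356.6) and Ndufa4 (590.5), and in complex V for Atp5g1 (123.6), Atp5g2 (35.41), Atp5j (297.1) and Atp5s (56.46).

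PVN IP118/PY115 library 9 was the highest of its group in 18 cases. Its sums were 13620.5 CPM over all members, 4231.1 over complex I and 2115.4 over complex IV. The genes were Ndufa6 (136.5), Ndufc1 (79.11), Ndufs5 (38.92), Ndufv3 (84.9), Sdhb (185.9), Uqcr10 (133.2) and Cycs (42), then Cox6b1 (233.7), Cox7a2 (185.2), Cox7b (187.4) and Cox8a (318.2), and Atp5d (180.5), Atp5e (138.5), Atp5j (184.1) and Atp5k (124.0).

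The other cases were spread over more libraries. In PVN, vehicle library 8 was high for Atp5d (202.8), Cyc1 (212.4) and Ndufa8 (149.6), vehicle library 1 for Atp5g3 (387.7) and IP118/PY115 library 10 for Ndufb4 (14.52), while vehicle library 7 was low for Sdha (616.6). In ARC, vehicle library 9 was high for Cox5b (143.2), Ndufa8 (158.3) and Uqcrq (124.0), vehicle library 2 for Ndufa1 (74.01), vehicle library 6 for Uqcrh (228.2) and IP118/PY115 library 2 for Atp5b (1327.6), while IP118/PY115 library 10 was low for summed complex II (858.5). In NTS, IP118/PY115 library 1 was high for Cox6a2 (0.8573) and IP118/PY115 library 8 for Ndufc1 (113.3).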

How the results depend on the processing

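No member was called for treatment under any alternative run in the 3 regions, and leaving out each library in turn gave 0 to 0 calls. The members' median treatment effect then ran from -0.096 to 0.016 in PVN, -0.064 to -0.024 in ARC and 0.011 to 0.053 in NTS. In PVN the median, -0.063, was positive with limma-voom and quality weights (0.034), without vehicle library 10 (0.016) and without the vehicle libraries of a separate number range, 5553 to 5557 (0.01). Medians kept their sign in ARC and NTS.

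Counts of called members between regions moved by more than 1.5 times in 9 cases. The shares of all genes called in the refits are not given beside them. With the oligodendrocyte marker covariate 17 were called for ARC over NTS (median -0.14), 16 for PVN over ARC and 16 for PVN over NTS. For PVN over ARC the count was 15 with library totals alone and 17 without PVN vehicle library 10. For PVN over NTS it was 67 with limma-voom, 59 without PVN vehicle library 10, 57 without libraries 5553 to 5557 and 48 in the IP118/PY115 libraries. Without PVN vehicle library 10, without libraries 5553 to 5557, without NTS libraries 5738 to 5741 and the IP118/PY115 libraries were alternatives chosen after seeing the data.

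Of the single-gene values, 45 changed sign, 64 lost their call, 28 gained one and 1528 kept both. Signs changed as follows, on the log2 scale. In the IP118/PY115 libraries PVN over ARC gave Atp5g1 0.01, Ndufa8 0.035 and Sdhc 0.011, PVN over NTS gave Cox6a2 -0.795, Ndufa4 -0.22 and Sdhd -0.052, and ARC over NTS gave Atp5g2 -0.084. With library totals alone PVN over ARC gave Atp5g2 -0.046, Cox6b2 -0.022 and Cox8a -0.031, and PVN over NTS Ndufa4 -0.052. With limma-voom PVN over ARC gave Atp5g2 -0.035, Cox7a2 -0.034, Cox8a -0.072, Ndufa4 -0.075 and Sdhc 0.023, and PVN over NTS Cox7a2l -0.049, Ndufa4 -0.24 and Sdhd -0.095. With the log10 total as covariate Ndufa4 was -0.018 for PVN over NTS. With the oligodendrocyte covariate PVN over NTS gave Cox6b1 0.032, Cox7a2 0.051, Cox7b 0.052, Cycs 0.044 and Sdha 0.059, and ARC over NTS Cox7a1 0.283 and Ndufa4 0.011. Without PVN vehicle library 10 PVN over ARC gave Atp5g2 -0.113, Cox8a -0.041, Ndufa4 -0.061 and Sdhc 0.021, and PVN over NTS Cox7a2l -0.016, Ndufa4 -0.23 and Sdhd -0.093. Without the libraries numbered 1 PVN over ARC gave Cox6b2 -0.194 and Cox8a -0.001, and PVN over NTS Ndufa4 -0.016. Without libraries 5553 to 5557 PVN over ARC gave Atp5g2 -0.075, Cox8a -0.012, Ndufa4 -0.054 and Sdhc 0.034, and PVN over NTS Cox7a2l -0.058, Ndufa4 -0.197 and Sdhd -0.116. Without NTS libraries 5738 to 5741 PVN over NTS gave Cox7b 0.029. The cause was not tested.

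No paired analysis was possible because the labels give groups no shared replicate numbers and do not tie libraries to animals. Cox6a2, Cox6b2, Cox7a1, Cox7b2, Cox8b and Cox8c rest on few reads.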

Other observations

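In NTS, libraries 7 and 8 of both treatments had a composition of their own, noticed after the values were seen. Atp5b stood at 1221.0 and 951.8 CPM in IP118/PY115 libraries 7 and 8, against a group median of 1506.5 CPM, and at 996.6 and 1146.0 CPM in vehicle libraries 7 and 8, against 1435.2 CPM. Sdha was low in the same 4 libraries, at 575.8 and 515.1 CPM with IP118/PY115 and 550.1 and 569.6 CPM with vehicle. Uqcr10 was high there, at 152.4 and 147.0 CPM with IP118/PY115 and 147.0 and 144.8 CPM with vehicle. The summed cytosolic ribosomal protein genes were at 15640.9 and 16395.8 CPM with IP118/PY115 and 15902.3 and 15783.9 CPM with vehicle, the highest 4 values of NTS. In the sample titles these 4 libraries carry consecutive numbers, 5738 to 5741. Without them no member was called for treatment in NTS, and the members' median treatment effect there was 0.02.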
